A study of Mus musculus with 48 samples.

Results

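Levels of 10 genes of the circadian clock were followed through the hair cycle of mouse skin. They were taken by symbol from both deposited tables, and all 10 were found among the 46983 genes that each table lists. Arntl (also known as Bmal1), Clock and Npas2 form the activating arm, Per1, Per2, Per3, Cry1 and Cry2 the repressing arm, Nr1d1 (also known as Rev-erb alpha) encodes a repressor of Arntl, and Dbp is an output gene. All 10 also passed the filter on low values in both tables.

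RNA from whole skin of C57BL/6 mice had been sequenced by SMART-seq2 for chin, ventral and dorsal skin at 6 stages, from competent telogen through anagen (early, mid, late) and catagen to refractory telogen. Each of the 18 groups had 2 or 3 libraries, 43 in all. A further table held 2 libraries of telogen ear skin, 3 of the cartilage/muscle complex of the ear and, beside them, the same 2 libraries labelled dorsal competent telogen that the skin table holds. The study asked whether skin domains differ in the course of their hair cycles. The age and sex of the animals, the number of animals per library and the hour at which tissue was taken are not given in the sources used here, so hour and group cannot be told apart for any gene of the clock. Nothing states that replicates came from separate animals, and p-values then measure only the spread between these libraries. Because whole tissue was sequenced, fewer cells of a type and less RNA per cell cannot be told apart either.

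The clock of a cell is a loop of transcription. ARNTL pairs with CLOCK or NPAS2 and binds E-boxes of the Per, Cry, Nr1d1 and Dbp genes, PER and CRY proteins return to block that pair, and NR1D1 represses Arntl through elements that ROR receptors also bind. Output factors such as DBP act on D-boxes. Skin has such a clock in its epidermis, dermis and hair follicles, and telogen is the rest, anagen the growth and catagen the regression of the follicle.

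Promoter windows are shown for 4 members whose letters hold elements of this loop. Windows of RefSeq on GRCm38.p6, from 250 bases before to 50 bases after a start site, were at hand for 9 of the 10 members. Capitals mark a match to an E-box (CACGTG), a noncanonical E-box (CACGTT, read as AACGTG on the other strand), a D-box (TTATGTAA) or the core of a ROR element (TAGGTCA), each searched on both strands. Sequences run 5′ to 3′ on the strand of the gene, and positions are counted from the start site. The Per3 window, on the minus strand at chr4:151044616-151044915, holds D-boxes at -205 and -158.
Per3: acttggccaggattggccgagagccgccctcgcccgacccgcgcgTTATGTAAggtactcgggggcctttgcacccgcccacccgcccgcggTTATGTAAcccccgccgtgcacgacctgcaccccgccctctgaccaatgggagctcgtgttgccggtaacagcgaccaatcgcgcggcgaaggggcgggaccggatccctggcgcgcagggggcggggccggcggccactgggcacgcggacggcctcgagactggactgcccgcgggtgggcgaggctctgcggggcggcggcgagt
The Cry1 window, on the minus strand at chr10:85185005-85185304, holds a noncanonical E-box at -79 and an E-box at -60, and the Per1 window, on the plus strand at chr11:69098699-69098998, an E-box at -166.
Cry1: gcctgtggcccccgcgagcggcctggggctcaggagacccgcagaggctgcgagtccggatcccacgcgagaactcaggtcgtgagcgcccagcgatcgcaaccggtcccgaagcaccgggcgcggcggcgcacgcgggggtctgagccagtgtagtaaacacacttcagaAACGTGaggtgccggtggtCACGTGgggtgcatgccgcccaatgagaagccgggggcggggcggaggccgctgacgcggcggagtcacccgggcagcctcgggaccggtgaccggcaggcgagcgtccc
Per1: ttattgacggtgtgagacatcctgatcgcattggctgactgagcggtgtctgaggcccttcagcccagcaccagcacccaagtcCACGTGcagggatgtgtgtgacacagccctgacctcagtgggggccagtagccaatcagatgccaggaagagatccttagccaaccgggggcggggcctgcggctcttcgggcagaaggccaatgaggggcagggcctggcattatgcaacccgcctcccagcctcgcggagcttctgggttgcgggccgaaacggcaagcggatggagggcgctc
The Arntl window, on the plus strand at chr7:113207261-113207560, holds the ROR element core at 30.
Arntl: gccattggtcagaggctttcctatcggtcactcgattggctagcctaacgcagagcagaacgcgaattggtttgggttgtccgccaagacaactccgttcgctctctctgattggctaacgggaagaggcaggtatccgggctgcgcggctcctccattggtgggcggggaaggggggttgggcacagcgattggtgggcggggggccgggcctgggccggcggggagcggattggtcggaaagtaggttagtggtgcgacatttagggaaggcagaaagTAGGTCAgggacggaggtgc
Among all 32851 windows of this length, 7.15% held an E-box, 4.68% the noncanonical E-box, 0.938% the D-box and 2.61% the ROR element core. Of the 13 windows of the members, 2 held an E-box, 3 the noncanonical E-box, 1 the D-box and 1 the ROR element core. The letters of a cAMP response element (TGACGTCA, in 1.79% of all windows) were in 0 of the 13. Per2 had no window.

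Each member lies in 1 locus of GRCm38, with positions from GENCODE vM21. Arntl spans chr7:113207465-113314126, Clock chr5:76209868-76304792, Npas2 chr1:39193731-39363236, Per1 chr11:69095217-69109960, Per2 chr1:91415982-91459324 and Per3 chr4:151003652-151044665. Cry1 spans chr10:85131700-85185064, Cry2 chr2:92403646-92434043, Nr1d1 chr11:98767932-98775333 and Dbp chr7:45705088-45710203. Exons of 4 members overlap exons of a gene on the opposite strand: 539 of the 2993 exonic bases of Dbp lie over Sphk2, 295 of 6320 bases of Cry2 over D930015M05Rik, 263 of 3077 bases of Nr1d1 over Thra and 33 of 7523 bases of Arntl over Gm45355. The library kit does not mark the strand, so reads from these stretches cannot be told apart.

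Some libraries stood apart from their labels, and this is said beside many of the results that rest on them, with values without them for some of the tests over several stages. Other values given for the same groups rest on the same libraries. Depth, estimated from the steps in the values, ran from 6730250 to 29565623 fragments per library. The 2 libraries labelled dorsal competent telogen resembled chin late anagen: a chi-square per degree of freedom had a median over genes of 1.81 to 2.20 between these groups, against 2.76 between the chin late anagen replicates and 1.2 between the dorsal competent telogen replicates. Their summed level of hair matrix and shaft genes (7 of 8 listed genes were found) was 3922 to 3965 FPKM (fragments per kilobase of transcript, scaled to the sequencing depth), inside the 3883 to 6633 FPKM of all mid and late anagen libraries and above the 919 to 3451 FPKM of the other telogen libraries. Both chin late anagen libraries were in turn nearest to a library labelled dorsal competent telogen (root mean square log2 difference 0.40 and 0.39). The likeness alone does not tell which label is in doubt, and results that use chin late anagen share this limit. The 3 libraries labelled ventral early anagen had 813 to 899 FPKM for that list, near the 1035 to 1116 FPKM of dorsal early anagen and below the 2081 to 2517 FPKM of chin early anagen. Shh, a signal of the growing follicle, had 0.14 to 0.27 FPKM in ventral early anagen and 9.99 to 11.65 FPKM in dorsal early anagen. The libraries labelled competent telogen in chin and ventral skin were also unlike refractory telogen: Shh had 4.56 to 7.55 and 8.82 to 11.92 FPKM, against 0.51 to 2.14 FPKM over the refractory telogen libraries, and Lef1, a WNT effector of the hair matrix, 38.6 to 39.08 and 38.89 to 52.97 FPKM, against 4.3 to 11.36 FPKM. Their hair matrix and shaft sums, 1628 to 1722 and 1412 to 1682 FPKM, lay below those of mid and late anagen. For ventral catagen replicate 1, a label of tissue location names the ear, whereas its title and source give ventral catagen, by which it was grouped. Both ventral catagen libraries had hair matrix and shaft sums of 4590 to 5440 FPKM, against 49.3 to 50.7 FPKM in ear skin. The replicates of ventral refractory telogen were farther apart than those of any other group (median chi-square per degree of freedom 11.6), followed by those of chin mid anagen (7.06).

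Levels of the members differed widely on the FPKM scale, which is per length of transcript. Over the 43 skin libraries the median was 10.21 FPKM for Nr1d1, 8.54 for Dbp, 6.45 for Arntl, 6.27 for Cry1, 6.18 for Per3, 5.94 for Per1, 4.97 for Cry2 and 3.88 for Clock. Npas2 and Per2 were low, with medians of 0.53 and 0.33 FPKM. The ratio of the highest to the lowest of the 18 group means was smallest for Arntl (2.56) and Clock (2.9), and largest for Dbp (14.1), Npas2 (10.6), Per1 (8.72), Per2 (8.72) and Nr1d1 (8.08). Per3, Cry1 and Cry2 had ratios of 5.8, 4.24 and 3.78. When the 18 groups were ordered by their means, the libraries of 12 to 15 of the 17 neighbouring pairs overlapped, depending on the member, so most neighbours in these orders did not differ beyond their spread. Chin refractory telogen was the highest group for 5 of the 10 members, Per1, Per3, Cry2, Nr1d1 and Dbp.

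**Figure D1:**
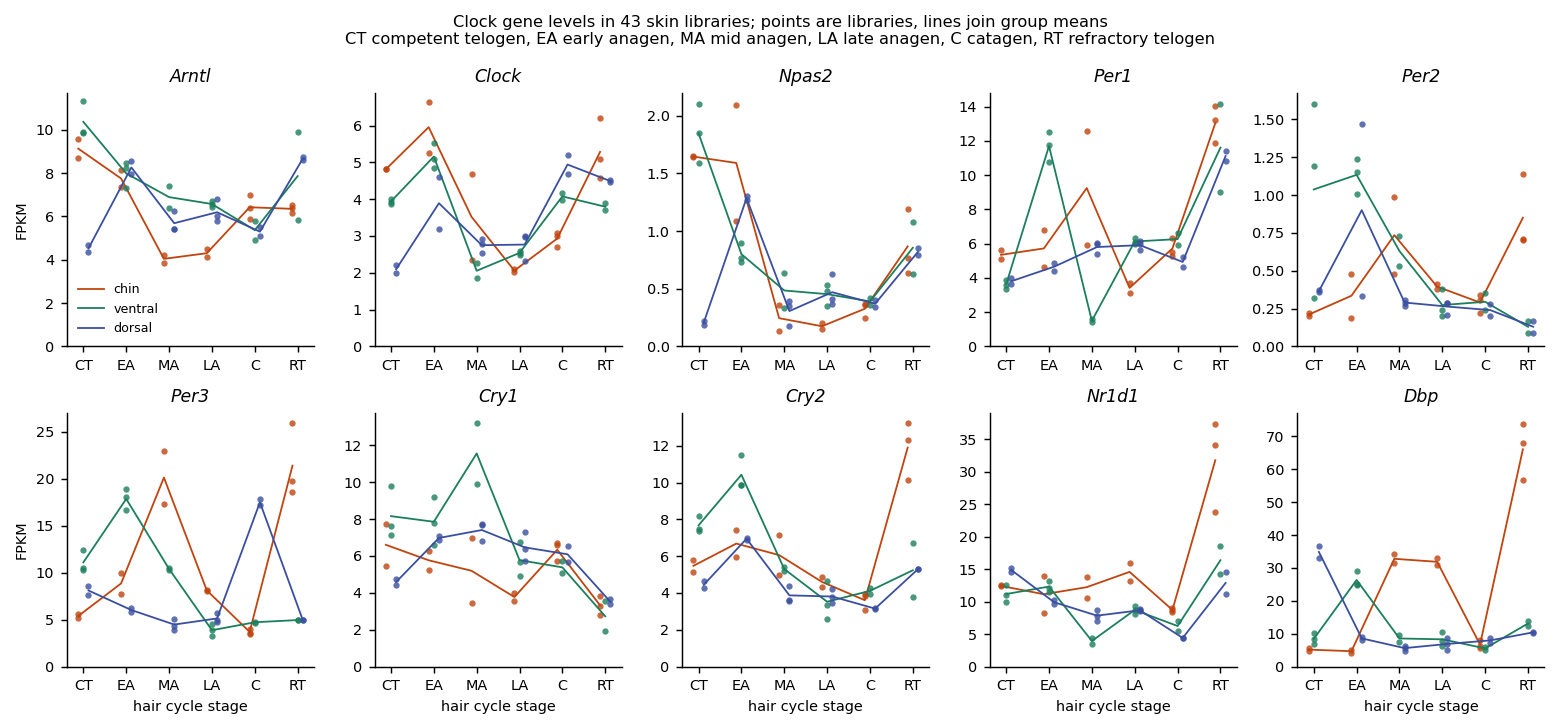
Levels of the 10 clock genes in FPKM (vertical axes, from 0) at the 6 hair cycle stages (horizontal axes) in chin, ventral and dorsal skin. Points are libraries and lines join group means. Dbp and Nr1d1 stand highest at chin refractory telogen, with means of 66.1 and 31.8 FPKM.

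Over the hair cycle, 10 of 10 members changed in chin skin, 10 in ventral skin and 9 in dorsal skin, where Per2 did not pass (limma, adjusted p = 0.096). The test asked whether any of the 6 stage means differed within a domain on the log2(FPKM + 1) scale, with a threshold of 0.05 on the p-value adjusted over all 21257 genes tested. Among all genes, 66.2% changed over the stages in chin, 70.2% in ventral and 68.5% in dorsal skin. In chin skin the call of Per2 (limma, adjusted p = 0.039) was lost without either competent telogen library, early anagen replicate 1, mid anagen replicate 2, catagen replicate 1 or 3, or any refractory telogen library. For 10 of 10 members the domains differed in their course over the stages, against 73.3% of all genes (limma test of the interaction). Without the libraries labelled dorsal competent telogen and ventral early anagen, 9 of the 10 interactions were still called, and that of Npas2 was not (limma, adjusted p = 0.62).

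**Figure D2:**
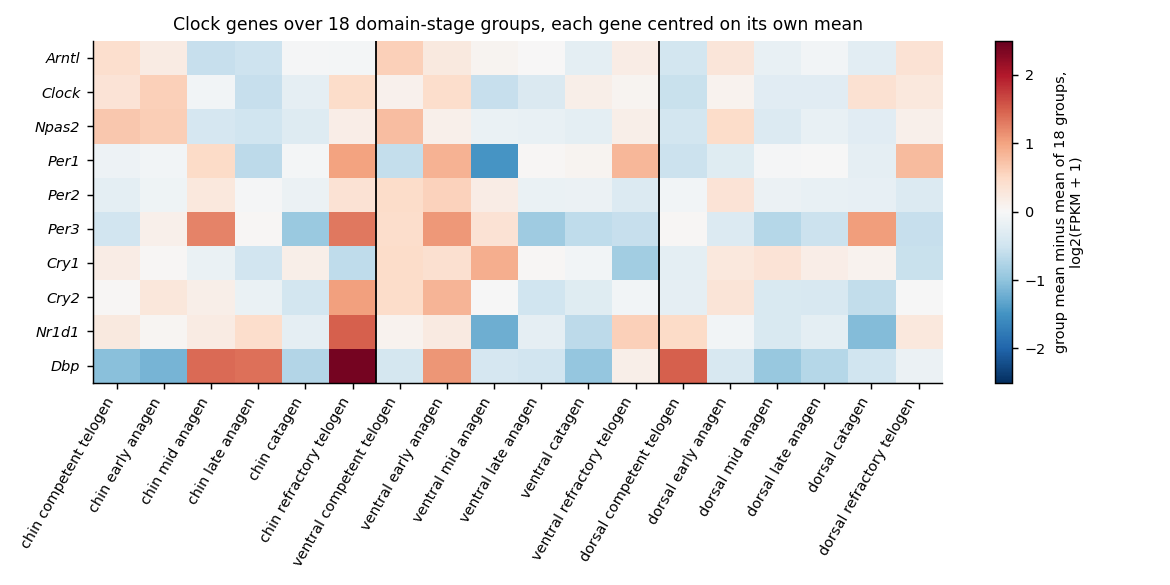
Mean level of each clock gene in each of the 18 groups, as the difference from its own mean over the groups on the log2(FPKM + 1) scale (colour). Columns are domain-stage groups, with black lines between the domains. Dbp is high in 5 columns, chin mid anagen, chin late anagen, chin refractory telogen, ventral early anagen and dorsal competent telogen.

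Step by step around the cycle, the number of members that passed varied from 0 to 9 of 10. In chin skin 1 member passed from competent telogen to early anagen (2.14% of all genes), 6 to mid anagen (18.1%), 3 to late anagen (19.7%), 6 to catagen (13.1%), 9 to refractory telogen (48.0%) and 9 between refractory and competent telogen (36.3%). The single member of the first step was Per3, which did not pass without chin competent telogen replicate 1 (0 members), and the count for catagen was 2 without chin late anagen replicate 1. In ventral skin, in the same order, 7 (42.5%), 7 (42.4%), 5 (24.2%), 1 (5.93%), 6 (33.6%) and 9 (42.6%) members passed. These counts were 4 for the first step without ventral competent telogen replicate 2, 3 for the third without ventral mid anagen replicate 2, 0 for the fourth, which was Clock, without ventral catagen replicate 1, and 3 for the fifth without ventral refractory telogen replicate 1. In dorsal skin 7 (43.4%), 6 (39.2%), 0 (2.68%), 3 (38.7%), 7 (43.7%) and 6 (22.2%) members passed. Without dorsal early anagen replicate 2 the first and the second count were both 3. The first and the last dorsal count rest on the libraries labelled dorsal competent telogen. In ventral skin the first and the second count rest on those labelled ventral early anagen. From dorsal mid to late anagen limma called 0 members, and 0 had an unadjusted p under 0.05.

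In the activating arm, Arntl and Npas2 were high in competent telogen of chin and ventral skin and low in chin mid and late anagen. These competent telogen libraries are those with high Shh and Lef1, whose part in the difference was not tested. Arntl encodes the partner common to both activating pairs. Its ventral competent telogen libraries had 9.91, 11.34 and 9.86 FPKM and its chin competent telogen libraries 8.71 and 9.56 FPKM, whereas chin mid anagen had 4.24 and 3.85 FPKM and chin late anagen 4.11 and 4.5 FPKM. The libraries of the first pair of groups lay above all those of the second. From early anagen, with 8.14 and 7.37 FPKM, to mid anagen in chin skin, Arntl fell by 0.79 ± 0.13 on the log2(FPKM + 1) scale (± SE, limma, adjusted p = 8.9e-05). From catagen to refractory telogen it rose in dorsal skin, from 5.1 and 5.5 to 8.6 and 8.74 FPKM (0.62 ± 0.13, limma, adjusted p = 0.00029). The libraries labelled dorsal competent telogen were low, at 4.37 and 4.69 FPKM.

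Npas2, which encodes the alternative partner of ARNTL, was lower throughout. It had 1.65 and 1.64 FPKM in chin competent telogen and 1.85, 1.59 and 2.1 FPKM in ventral competent telogen. In chin mid anagen 0.13 and 0.36 FPKM were measured, and in chin late anagen 0.2 and 0.15 FPKM. As for Arntl, these groups did not overlap. Early anagen was uneven in chin skin, at 2.09 and 1.09 FPKM, and even in dorsal skin, at 1.3 and 1.27 FPKM. Npas2 fell from early to mid anagen in chin skin by 1.04 ± 0.15 and in dorsal skin by 0.81 ± 0.14 (limma, adjusted p = 1.9e-05 and 3.3e-05). In ventral skin it fell from competent telogen to early anagen, at 0.73, 0.77 and 0.9 FPKM, by 0.66 ± 0.12 (limma, adjusted p = 8.5e-05), a step that rests on the libraries labelled ventral early anagen.

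Clock, whose product is the usual partner of ARNTL, had its highest mean at chin early anagen (6.65 and 5.26 FPKM) and its lowest at ventral mid anagen (2.26 and 1.85 FPKM). From the libraries labelled ventral early anagen, with 5.1, 5.52 and 4.85 FPKM and little Shh, to mid anagen it fell by 1.01 ± 0.14 (limma, adjusted p = 1.4e-06). It rose from catagen to refractory telogen in chin skin, from 3.01, 2.69 and 3.09 to 4.57, 5.08 and 6.2 FPKM (0.67 ± 0.13, limma, adjusted p = 7.1e-05). In dorsal skin Clock rose a stage earlier, from late anagen with 2.33, 3 and 2.97 FPKM to catagen with 4.68 and 5.2 FPKM (0.66 ± 0.14, limma, adjusted p = 0.00045). Neither pair of groups overlapped.

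Within the repressing arm, Per1, a period gene that responds early to many signals, was high at refractory telogen in all 3 domains. It had 14.02, 11.91 and 13.2 FPKM in chin, 14.18 and 9.04 FPKM in ventral and 11.43 and 10.81 FPKM in dorsal refractory telogen. At competent telogen the levels were 5.62 and 5.08 FPKM in chin, 3.9, 3.38 and 3.6 FPKM in ventral and 3.98 and 3.64 FPKM in dorsal skin, and no competent telogen library reached a refractory telogen library. The difference of competent from refractory telogen was -1.14 ± 0.17 in chin, -1.42 ± 0.17 in ventral and -1.33 ± 0.19 in dorsal skin (limma, adjusted p = 4.8e-06, 1.4e-07 and 5.8e-06). The dorsal value rests on the libraries that resembled chin late anagen, and the chin and ventral values on competent telogen libraries with high Shh and Lef1. What part this had in the differences was not tested. The lowest levels of Per1 were those of ventral mid anagen, 1.41 and 1.58 FPKM, after 12.55, 10.79 and 11.77 FPKM in the libraries labelled ventral early anagen, a difference of -2.35 ± 0.17 (limma, adjusted p = 9.1e-12). From there Per1 rose to 6.32, 5.96 and 6.11 FPKM in ventral late anagen (1.52 ± 0.17, limma, adjusted p = 2.5e-07). In chin mid anagen the replicates differed, at 5.92 and 12.58 FPKM.

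Per3, a period gene that the loop can do without, was high at 2 separate stages in chin skin. The libraries gave 5.17 and 5.57 FPKM in competent telogen, 7.72 and 9.96 FPKM in early and 22.91 and 17.3 FPKM in mid anagen. Late anagen had 8.19 and 8.02 FPKM, catagen 3.54, 3.51 and 4.01 FPKM and refractory telogen 18.54, 25.86 and 19.71 FPKM. The mid anagen and refractory telogen libraries lay above all other chin libraries. Per3 rose from early to mid anagen by 1.10 ± 0.14, fell by 1.2 ± 0.14 to late anagen and by 0.96 ± 0.13 to catagen, and rose by 2.24 ± 0.11 to refractory telogen (limma, adjusted p = 1.9e-06, 3.3e-07, 6.2e-06 and 5.3e-15).

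In dorsal skin the highest level of Per3 was at catagen. The dorsal catagen libraries had 17.79 and 17.16 FPKM, after 5.65, 4.97 and 4.73 FPKM at late anagen and before 5 and 4.9 FPKM at refractory telogen. Per3 rose into catagen by 1.60 ± 0.13 and fell out of it by 1.63 ± 0.14 (limma, adjusted p = 5.0e-11 and 1.3e-10). At catagen Per3 was higher in dorsal than in chin skin by 1.98 ± 0.13 and than in ventral skin, with 4.67 and 4.75 FPKM, by 1.69 ± 0.14 (limma, adjusted p = 5.3e-13 and 1.3e-10). The highest ventral level, 16.63, 17.99 and 18.87 FPKM, was that of the libraries labelled early anagen.

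Per2, a period gene on which the rhythm of the loop depends, was near the bottom of the measured range. Its group means ran from 0.13 FPKM at dorsal refractory telogen (0.09 and 0.17 FPKM) to 1.13 FPKM at ventral early anagen (1.24, 1.01 and 1.15 FPKM). Replicates were uneven in ventral competent telogen, with 1.6, 0.32 and 1.19 FPKM, and in dorsal early anagen, with 0.33 and 1.47 FPKM. At refractory telogen the chin libraries, 0.7, 1.14 and 0.71 FPKM, lay above those of ventral skin, 0.17 and 0.09 FPKM, and of dorsal skin.

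Cry1, a cryptochrome repressor, had its 3 lowest group means at refractory telogen. Chin refractory telogen had 3.85, 3.29 and 2.82 FPKM, ventral 3.54 and 1.91 FPKM and dorsal 3.38 and 3.65 FPKM, against 9.92 and 13.2 FPKM at ventral mid anagen, the highest group. From catagen, with 6.7, 6.58 and 5.73 FPKM, to refractory telogen Cry1 fell by 0.77 ± 0.17 in chin skin (limma, adjusted p = 0.00054). The same step gave -0.81 ± 0.21 in ventral and -0.65 ± 0.21 in dorsal skin (limma, adjusted p = 0.0039 and 0.014). The ventral difference was -0.49 and did not pass without ventral refractory telogen replicate 2, and the dorsal call was lost without dorsal catagen replicate 2 (-0.56) or dorsal refractory telogen replicate 1 (-0.61). Competent telogen was above refractory telogen in ventral skin by 1.32 ± 0.20 (limma, adjusted p = 2.8e-06), with 7.11, 9.77 and 7.6 FPKM in libraries that had high Shh and Lef1.

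Cry2, the other cryptochrome, rose in chin skin where Cry1 fell. It went from 3.83, 3.94 and 3.05 FPKM at catagen to 13.26, 10.15 and 12.3 FPKM at refractory telogen (1.48 ± 0.15, limma, adjusted p = 1.9e-09). In chin competent telogen, whose libraries had high Shh and Lef1, the level was 5.16 and 5.79 FPKM, a difference of -0.99 ± 0.17 from refractory telogen (limma, adjusted p = 2.0e-05). The next highest group was ventral early anagen, at 9.88, 9.89 and 11.51 FPKM, and its range overlapped that of chin refractory telogen. In dorsal skin Cry2 fell from 6.9 and 7 FPKM at early anagen to 3.64, 4.38 and 3.59 FPKM at mid anagen (0.71 ± 0.17, limma, adjusted p = 0.0011).

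Nr1d1, whose product is a nuclear receptor that represses Arntl, rose from catagen to refractory telogen in every domain. In chin skin it went from 8.35, 9.07 and 8.74 to 37.4, 23.88 and 34.08 FPKM, in ventral skin from 7.02 and 5.47 to 18.51 and 14.25 FPKM, and in dorsal skin from 4.34 and 4.47 to 14.55 and 11.2 FPKM. The groups did not overlap in any domain. The differences were 1.73 ± 0.15, 1.26 ± 0.19 and 1.35 ± 0.19 on the log2 scale (limma, adjusted p = 1.8e-10, 5.1e-06 and 7.5e-07), and all 3 were called under every alternative that was run. The lowest levels of Nr1d1 were at ventral mid anagen, 4.4 and 3.47 FPKM, and at dorsal catagen. Thra, which shares exonic bases with Nr1d1, also had its highest skin mean at chin refractory telogen, 30.1 FPKM, against 15.1 FPKM at chin catagen.

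Dbp, which encodes a D-box activator, had the widest range. Chin refractory telogen had 73.7, 56.61 and 67.88 FPKM. Chin mid anagen had 31.42 and 34.13 FPKM, chin late anagen 30.76 and 32.94 FPKM, dorsal competent telogen 36.66 and 33.05 FPKM and ventral early anagen 24.81, 28.96 and 25.23 FPKM. In the other 13 groups every library had between 4.24 and 13.97 FPKM, below all libraries of these 5 groups. In chin skin Dbp rose by 2.58 ± 0.20 from early to mid anagen, fell by 2.11 ± 0.18 from late anagen to catagen and rose by 3.13 ± 0.16 to refractory telogen (limma, adjusted p = 9.7e-11, 2.6e-09 and 7.3e-15). Competent telogen, with 5.56 and 4.73 FPKM, differed from refractory telogen by -3.44 ± 0.18 (limma, adjusted p = 5.8e-15). This difference rests on the chin competent telogen libraries with high Shh and Lef1.

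Dorsal competent telogen and ventral early anagen, among the groups with high Dbp, had libraries that went against their labels. In dorsal skin Dbp differed by 1.65 ± 0.20 between competent and refractory telogen and fell by 1.91 ± 0.20 from competent telogen to early anagen (limma, adjusted p = 4.2e-07 and 9.6e-09). Without the libraries labelled dorsal competent telogen, the Dbp libraries of dorsal skin lay between 4.79 and 10.57 FPKM. Over the 10 members, dorsal competent telogen differed from chin late anagen by a root mean square of 0.096 on the log2 scale, and by at most 0.23, for Cry1. The next nearest group was chin mid anagen, with 0.55.

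At refractory telogen, chin skin stood apart from both other domains. Of the 10 members, 6 differed between ventral and chin skin and 6 between dorsal and chin skin, against 30.7% and 34.8% of all genes. Dbp, Per3, Cry2 and Nr1d1 were called in both under every alternative, each higher in chin skin. For Dbp the difference from chin was -2.24 ± 0.18 in ventral and -2.55 ± 0.18 in dorsal skin (limma, adjusted p = 1.1e-10 and 1.2e-11), where ventral libraries had 12.23 and 13.97 FPKM and dorsal libraries 10.23 and 10.57 FPKM. As ratios of mean FPKM, chin skin was 5.04 and 6.35 times as high for Dbp. Per3 differed from chin by -1.90 ± 0.13 and -1.90 ± 0.13, Cry2 by -1.08 ± 0.17 and -1.03 ± 0.17, and Nr1d1 by -0.90 ± 0.17 and -1.23 ± 0.17. Per1 had differences of -0.18 ± 0.17 and -0.21 ± 0.17, and Npas2 of -0.01 ± 0.14 and -0.03 ± 0.14, and neither passed. Between dorsal and ventral refractory telogen 0 of 10 members passed in limma (13.7% of all genes), 0 had an unadjusted p under 0.05, and 1 passed without ventral refractory telogen replicate 1.

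Summed markers of muscle and of macrophages had their highest means at chin refractory telogen. The summed level of 8 skeletal muscle genes there was 9623 to 14725 FPKM, the highest of the 18 groups, with 0 genes of the list at 0, and the next highest group mean was 5516 FPKM, in dorsal early anagen. In the other groups with high Dbp the mean of that sum was 331 FPKM at chin mid anagen, 285 at ventral early anagen, 4100 at chin late anagen and 4097 at dorsal competent telogen. The sum of 6 macrophage genes had a mean of 89.1 FPKM at chin refractory telogen. Its libraries, at 57.5 to 106 FPKM, overlapped the 59.7 to 65.5 FPKM of ventral competent telogen, the next highest group. The part of muscle or macrophages in these differences was not tested.

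At the other stages the domains differed most regularly in Per3 and Dbp. Over the 3 domains, 8 of 10 members differed in competent telogen (54.0% of all genes), 7 in early anagen (51.6%), 8 in mid anagen (38.1%), 6 in late anagen (20.8%), 3 in catagen (42.9%) and 6 in refractory telogen (42.2%). In late anagen the count was 2, Per3 and Dbp, without chin late anagen replicate 1. Under every alternative 2 members were called in competent telogen, 2 in early, 5 in mid and 2 in late anagen, 3 in catagen and 5 in refractory telogen. Of all domain calls, 6 were lost without the libraries labelled dorsal competent telogen and 4 without those labelled ventral early anagen. Per3 was called at all 6 stages and Dbp at all but catagen, under every alternative. At catagen the 3 members were Per3, Nr1d1 and Clock.

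By pairs of domains, competent telogen gave 3 called members between ventral and chin skin (23.0% of all genes), 5 for dorsal against chin (36.7%) and 8 for dorsal against ventral skin (47.9%). In the same order, early anagen gave 6 (32.9%), 3 (27.0%) and 5 (41.7%), and mid anagen 7 (22.1%), 6 (17.2%) and 5 (28.3%). The dorsal counts in competent telogen and the ventral counts in early anagen rest on libraries that went against their labels. Late anagen gave 5 (15.6%), 6 (19.5%) and 0 (3.14%), and catagen 0 (5.19%), 3 (41.3%) and 1 (35.4%). Leaving out 1 library took some counts down: between ventral and chin competent telogen to 1 without chin competent telogen replicate 2 (and up to 5 without ventral refractory telogen replicate 1), between dorsal and chin early anagen to 1 without chin early anagen replicate 1, and between dorsal and ventral early anagen to 3 without dorsal early anagen replicate 1. In mid anagen the dorsal and chin count was 2 without chin mid anagen replicate 2 and the dorsal and ventral count 3 without dorsal mid anagen replicate 1. In late anagen both counts against chin were 2 without chin late anagen replicate 1, and both rest on the chin libraries that dorsal competent telogen resembled. Of the counts of 0 in limma, that in late anagen had 1 member at an unadjusted p under 0.05, and that in catagen 3, with 1 passing without chin mid anagen replicate 1.

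Dbp changed its order among the domains from stage to stage. In mid anagen it differed from chin skin by -1.83 ± 0.20 in ventral and -2.36 ± 0.18 in dorsal skin, and in late anagen by -1.85 ± 0.18 and -2.08 ± 0.18 (limma, adjusted p = 1.5e-07, 2.2e-10, 2.5e-08 and 1.3e-09). The late anagen values rest on the chin libraries that dorsal competent telogen resembled. In early anagen ventral skin was higher than chin skin by 2.27 ± 0.18, and in competent telogen dorsal skin was higher than chin skin by 2.55 ± 0.20 (limma, adjusted p = 5.5e-11 and 4.2e-11), and both of these rest on the libraries that went against their labels. Per1 in mid anagen differed by -1.96 ± 0.19 between ventral and chin skin and by 1.45 ± 0.17 between dorsal and ventral skin (limma, adjusted p = 2.5e-08 and 3.3e-07). Both chin mid anagen libraries of Per1 lay above those of ventral skin.

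Telogen was compared with anagen as the mean of both telogen stages minus the mean of the 3 anagen stages in a domain. Nr1d1 was higher in telogen in all 3 domains, by 0.63 ± 0.11 in chin, 0.75 ± 0.11 in ventral and 0.60 ± 0.11 in dorsal skin (limma, adjusted p = 5.6e-05, 4.9e-06 and 0.00011). It kept its sign and its call under every alternative that was run, none of which left out chin refractory telogen as a group. In chin skin the Nr1d1 level of refractory telogen was 23.88 to 37.4 FPKM. Chin competent telogen, at 12.34 and 12.51 FPKM, lay within the 8.29 to 15.95 FPKM of the chin anagen libraries. Ventral competent telogen, at 9.9 to 12.6 FPKM, likewise lay within the 3.47 to 13.25 FPKM of the ventral anagen libraries. In chin skin 6 members were higher and 0 lower in telogen, and 36.5% of all genes passed (27.5% higher, 8.99% lower). They were Arntl (0.49 ± 0.08), Clock (0.41 ± 0.10), Npas2 (0.52 ± 0.09), Per1 (0.52 ± 0.12), Cry2 (0.45 ± 0.11) and Nr1d1. For Clock, Npas2, Per1 and Cry2 too, chin competent telogen lay within the range of the chin anagen libraries, and for Arntl above it. The median difference of the 10 members was 0.43, and that of all genes 0.10. Per2, Per3, Cry1 and Dbp had differences between -0.05 and 0.13 that did not pass.

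In ventral skin 5 members were higher and 2 lower in telogen, and 21.2% of all genes passed (16.1% higher, 5.08% lower), with a median of 0.17 for the members beside 0.05. Nr1d1 and Npas2 (0.54 ± 0.09, limma, adjusted p = 3.2e-05) were called under every alternative. Cry1 differed by -0.65 ± 0.12 (limma, adjusted p = 0.00023), and by 0.0094 without the libraries of ventral refractory telogen. Without them Per1 and Per3 passed in the opposite direction, Per1 at -0.40 (limma, adjusted p = 0.007) against 0.31 ± 0.11 with them, and Per3 at 0.25 (limma, adjusted p = 0.032) against -0.26 ± 0.08. With ventral refractory telogen kept, the call of Per1 was lost without ventral refractory telogen replicate 1 (0.16), competent telogen replicate 1 or 3, early anagen replicate 2 or 3, or any mid or late anagen library (0.29 to 0.33), and that of Per3 without ventral competent telogen replicate 2 (-0.23). The count of 7 was 4 without ventral refractory telogen replicate 1. Without the libraries labelled ventral early anagen, the ventral difference of Per3 was 0.19 and did not pass (limma, adjusted p = 0.13). Over the 3 domains, 1 result of telogen against anagen that had not passed was then called. In dorsal skin 3 members were higher and 1 lower, and 39.0% of all genes passed (9.44% higher, 29.6% lower), with a median of 0.03 beside -0.10. Dbp was higher by 1.36 ± 0.12 (limma, adjusted p = 5.7e-10), and by 0.53 (limma, adjusted p = 0.0089) without the libraries labelled dorsal competent telogen. Cry1 differed by -0.66 ± 0.13, and by -0.81 without them. Per1, Clock and Arntl passed without them, at 0.91, 0.43 and 0.34 (limma, adjusted p = 2.5e-05, 0.0084 and 0.012), against 0.25 ± 0.12, 0.01 ± 0.10 and -0.06 ± 0.08 with all libraries, where none of the 3 passed. Per3 differed by 0.26 ± 0.09, and by -0.0485 without them, and its call was lost without dorsal competent telogen replicate 1 (0.22) or dorsal refractory telogen replicate 1 (0.25). Shh and Lef1 differed between the telogen stages as described, and their part in the comparison was not tested.

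**Figure D3:**
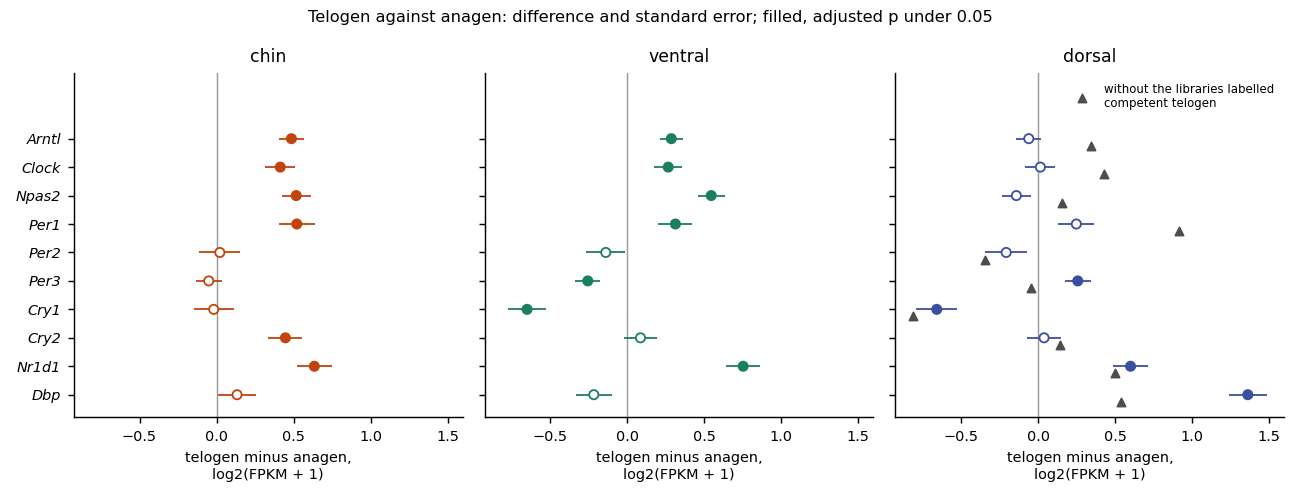
Telogen minus anagen for each clock gene in chin, ventral and dorsal skin, in log2(FPKM + 1) with standard errors (horizontal axis). Filled circles passed limma at an adjusted p under 0.05, and triangles give dorsal values without the libraries labelled competent telogen. Nr1d1 is filled in all 3 domains, and the Dbp value of dorsal skin moves from 1.36 to 0.53.

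Tissues of the ear were compared with dorsal skin in the ear table, and most members were higher in both. For ear skin 9 of 10 members were higher than in the dorsal libraries, where 59.3% of the 19299 genes tested passed and 44.7% were higher (14.6% lower). These dorsal libraries are those labelled competent telogen, which resembled chin late anagen. For the cartilage/muscle complex it was again 9 of 10, where 71.1% passed and 42.8% were higher (28.3% lower). Under every alternative, dorsal refractory telogen as the dorsal group included, 6 members were called for ear skin and 7 for the complex. Calls not kept were those of Cry1, Per1 and Arntl for ear skin and of Npas2 and Arntl for the complex. The members had median differences of 1.37 and 1.67 on the log2 scale, beside 0.33 and 0.24 over all genes. Scaling by the median of ratios shifted these medians of all genes by -0.31 and -0.25.

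Per3 had its highest level in ear skin. There were 82.57 and 82.2 FPKM in ear skin, 21.56, 25.6 and 23.35 FPKM in the cartilage/muscle complex and 8.52 and 7.66 FPKM in the dorsal libraries. No pair of these tissues overlapped. The ear skin mean was 10.2 times the dorsal mean (3.20 ± 0.09, limma, adjusted p = 2.3e-06), and the complex differed from ear skin by -1.77 ± 0.09 (limma, adjusted p = 8.0e-06). Dbp had 124.26 and 106.46 FPKM in ear skin and 122.22, 126.69 and 116.58 FPKM in the complex, ranges that overlapped, with a difference of 0.08 ± 0.09 (limma, adjusted p = 0.44). Both ear tissues were above the dorsal libraries for Dbp, by 1.70 ± 0.10 and 1.78 ± 0.09 (limma, adjusted p = 3.1e-05 and 7.3e-06).

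Cry2 and Nr1d1 were highest in the cartilage/muscle complex. Cry2 had 58.03, 64.23 and 57.67 FPKM there, 20.39 and 21.93 FPKM in ear skin and 4.63 and 4.25 FPKM in the dorsal libraries. The complex exceeded ear skin by 1.46 ± 0.08 and dorsal skin by 3.49 ± 0.08 (limma, adjusted p = 1.1e-05 and 2.2e-07). Nr1d1 had 118.36, 139.51 and 117.41 FPKM in the complex, 75.63 and 70.04 FPKM in ear skin and 14.52 and 15.23 FPKM in the dorsal libraries. Thra, which shares exonic bases with Nr1d1, had means of 96.9, 33.1 and 20.3 FPKM in the same order, and its part in the Nr1d1 values was not tested. No pair of tissues overlapped for Nr1d1 or Cry2. Between the complex and ear skin, Nr1d1 differed by 0.77 ± 0.09, Per1 by 1.02 ± 0.10 and Per2 by 0.81 ± 0.09 (limma, adjusted p = 0.00047, 0.00023 and 0.00036).

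Clock was higher than in the dorsal libraries by 1.72 ± 0.09 in ear skin and by 1.56 ± 0.08 in the complex (limma, adjusted p = 2.5e-05 and 1.1e-05), with 9.52 and 8.83 FPKM in ear skin. Arntl varied little, at 6.13 and 6.89 FPKM in ear skin and 5.66, 5.38 and 6.77 FPKM in the complex. Its differences of 0.44 ± 0.12 and 0.32 ± 0.11 from the dorsal libraries passed (limma, adjusted p = 0.02 and 0.038). Without dorsal competent telogen replicate 1 neither passed (0.40 and 0.28), nor without replicate 2 (0.48 and 0.36). The call of the ear skin difference was also lost without 1 of the ear skin libraries, and that of the complex without its replicate 1 or 3, and with median of ratios scaling the differences were 0.024 and -0.0151. Cry1, at 6.67 and 7.44 FPKM in ear skin and 5, 4.3 and 4.52 FPKM in the complex, differed by -0.52 ± 0.09 between them (limma, adjusted p = 0.0026). Between the complex and ear skin 4 members were higher and 2 lower, where 66.5% of all genes passed (28.0% higher, 38.5% lower), and all 6 were called under every alternative.

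**Figure D4:**
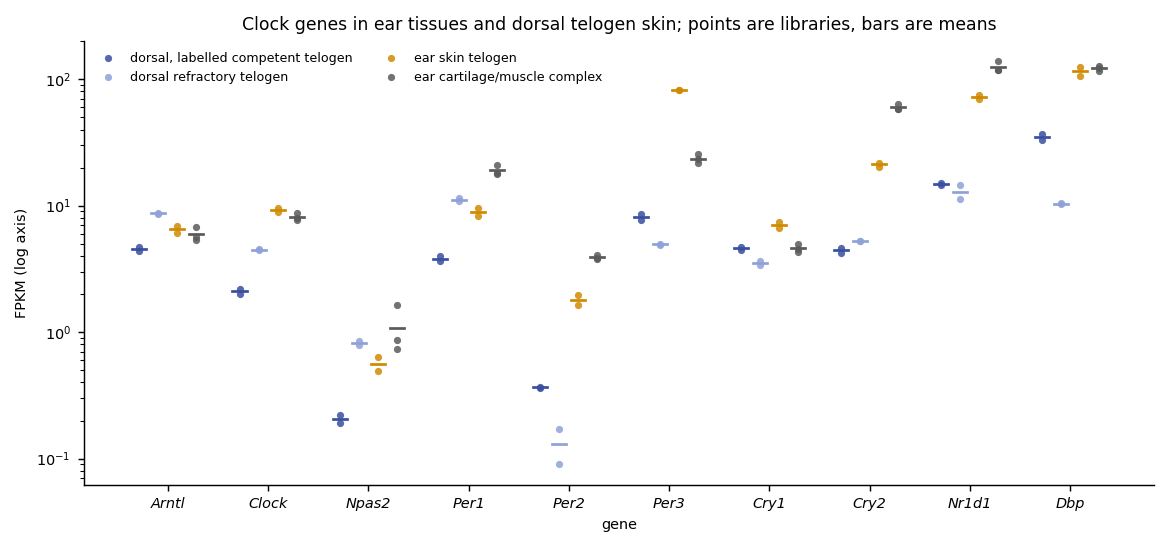
Clock genes in FPKM (log axis) in ear skin, ear cartilage/muscle complex, dorsal refractory telogen and the dorsal libraries labelled competent telogen, which resembled chin late anagen. Points are libraries and bars are means. Per3 is highest in ear skin, with a mean of 82.4 FPKM, and Nr1d1 in the complex, with 125 FPKM.

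With dorsal refractory telogen as the dorsal group, Dbp was higher by 3.35 in ear skin and by 3.43 in the complex. Per1 then differed by -0.30 in ear skin, with 11.43 and 10.81 FPKM in dorsal refractory telogen against 9.52 and 8.23 FPKM in ear skin, and Arntl by -0.37 and -0.48. Marker lists set the tissues apart. In the complex, 8 cartilage genes summed to 3400 to 4024 FPKM, 8 skeletal muscle genes to 16615 to 19380 FPKM and 6 epidermal keratinocyte genes, 1 of them at 0 in every library, to 3.48 to 3.68 FPKM. In ear skin the keratinocyte sum was 10694 to 11838 FPKM, the muscle sum 934 to 994 FPKM and the hair matrix and shaft sum 49.3 to 50.7 FPKM. Their part in the clock gene levels was not tested.

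Members were next set against each other over the 18 group means on the log2(FPKM + 1) scale, as a description of groups that share the stage and domain of their tissue. Arntl and Npas2 had the highest correlation of the 45 pairs (Pearson r = 0.88, Spearman rho = 0.88), with r = 0.90 in chin, 0.94 in ventral and 0.92 in dorsal skin over 6 groups each. Nr1d1 and Dbp had r = 0.67 and rho = 0.63. Cry1 and Nr1d1 gave r = -0.69 and rho = -0.61, negative in each domain (-0.84, -0.65 and -0.58). Arntl and Dbp had r = -0.42 and rho = -0.25 over all groups, with r = -0.69 in chin, 0.40 in ventral and -0.40 in dorsal skin. Within groups, the deviations of the 43 libraries from their group means gave r = 0.10 for Arntl and Npas2 and -0.06 for Nr1d1 and Dbp.

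**Figure D5:**
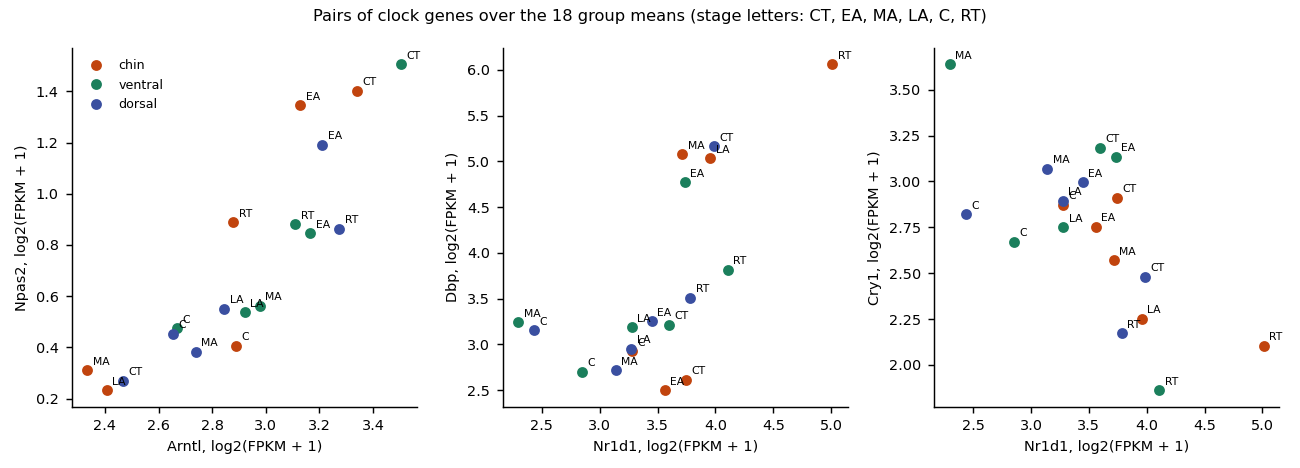
Pairs of clock genes over 18 group means in log2(FPKM + 1), coloured by domain and lettered by stage (CT and RT, competent and refractory telogen; EA, MA and LA, early, mid and late anagen; C, catagen). Arntl and Npas2 lie along a rising line (r = 0.88), and Nr1d1 and Cry1 along a falling one (r = -0.69).

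Of 12522 genes compared, a number that includes members, the non-members with the highest correlation over the 18 group means were, for Dbp, Tef (0.81), Ggt5 (0.78), Pfkfb3 (0.77), Tnfrsf1b (0.77) and Rap1gap (0.75). Tef encodes another D-box factor of the same family. For Arntl they were Serpinb12 (0.86), Fer (0.86), Serpina3b (0.85), Plek2 (0.85) and Rnf181 (0.85), and for Cry2 they were Khnyn (0.95), Dtx3l (0.94), Pink1 (0.94), Dgat1 (0.93) and Cpne2 (0.93). With the hair matrix and shaft sum, r was -0.80 for Cry2, -0.71 for Npas2, -0.66 for Clock and -0.62 for Arntl, and with the epidermal keratinocyte sum 0.67 for Cry2 and 0.63 for Arntl. For Dbp r was 0.54 with the macrophage, 0.51 with the adipocyte and 0.43 with the skeletal muscle sum. For Nr1d1 it was 0.61 with the keratinocyte, 0.52 with the macrophage and 0.37 with the skeletal muscle sum.

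A list of 18 further genes of the clock was counted beside the members. In chin skin 14 of them changed over the stages (66.2% of all genes), in ventral skin 16 (70.2%) and in dorsal skin 15 (68.5%), and the course differed between domains for 17 (73.3%). The nuclear receptor genes Nr1d2 and Rora, the D-box factor gene Tef and the repressor gene Ciart had their highest skin means at chin refractory telogen, with 13.3, 54.9, 24.8 and 10.5 FPKM. From chin catagen to refractory telogen 12 of the 18 were called (9 higher, 3 lower), where 48.0% of all genes passed. Over this step Tef rose by 1.79 ± 0.16, Nr1d2 by 1.62 ± 0.15, Hlf, which encodes a further D-box activator, by 1.29 ± 0.16, Rora by 1.28 ± 0.10 and Ciart by 1.27 ± 0.16. Nfil3, which encodes the D-box repressor, fell by 0.44 ± 0.07 (limma, adjusted p = 4.0e-06). Between telogen and anagen, 10 of 18 were called in chin skin (8 higher, 36.5% of all genes called), 5 in ventral (2 higher, 21.2%) and 9 in dorsal skin (6 higher, 39.0%). In ear skin 12 of 17 were higher and 4 lower than in dorsal skin, against 44.7% and 14.6% of all genes, with Nfil3 at 2.79 FPKM against 25.8 FPKM (-2.82 ± 0.08, limma, adjusted p = 2.1e-06) and Ciart at 50.1 against 4.8 FPKM (3.14 ± 0.14, limma, adjusted p = 1.1e-05). In the cartilage/muscle complex 10 were higher and 5 lower, against 42.8% and 28.3%. Rora had 126 FPKM in ear skin and 32.6 FPKM in the complex, a difference of -1.92 ± 0.06 (limma, adjusted p = 7.9e-07).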

How the data were processed

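RNA of whole skin and ear tissue was measured by paired-end sequencing. Per the study's methods, the authors aligned reads to mm10 with the GENCODE annotation, quantified them with RSEM 1.2.25 (per the labels) and deposited FPKM values with 2 decimals. They state a batch correction without naming batches, and whether the deposited values carry it is not given in the sources used here. Depth was estimated from steps in the FPKM of genes with 1 transcript.

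Groups came from the titles in the labels, also for ventral catagen replicate 1, whose tissue location reads ear. Values were taken as log2(FPKM + 1), which understates the change of low genes, and a gene was tested if 2 or more libraries reached 0.5 FPKM, with limma 3.58.1 in R 4.3.3 (variance trend, all 43 skin libraries in 1 fit of 18 groups, the 7 ear table libraries in another), with Benjamini-Hochberg adjustment over all genes tested and a threshold of 0.05. All tests are two-sided. The limma and depth steps were tested on simulated data. Python 3.11.15, numpy 2.4.6, pandas 2.3.3 and matplotlib 3.10.9 served for summaries and figures.

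The members and lists were chosen with earlier results of these data known. All 10 members are described, 6 related genes are named by role, and the 5 genes most alike are given for Dbp, Arntl and Cry2 (mean of at least 1 FPKM, with Gm, Rik, Mir and similar names left out). Alternatives were a pseudocount of 0.1, no filter, a minimum of 1 FPKM, TPM, median of ratios scaling, no variance trend, the libraries of 1 domain or stage alone, a replicate block and each library left out. The ear comparison was also run against dorsal refractory telogen. Leaving out dorsal competent telogen, ventral early anagen, both of them, or ventral refractory telogen was chosen after seeing the data.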

Additional observations from a re-analysis of the deposited data

Results flagged for a closer look

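No group has 4 or more libraries, so no library was tested as an outlier. The course over the 6 stages differed between chin, ventral and dorsal skin for all 10 members in the limma interaction test, where 73.3% of all genes passed. The adjusted p was 1.5e-16 for Per3, 9.2e-16 for Dbp, 3.9e-09 for Per1, 6.5e-07 for Arntl, 2.1e-06 for Npas2, 8.0e-06 for Nr1d1, 1.1e-05 for Clock, 2.5e-05 for Cry2, 0.0016 for Cry1 and 0.0024 for Per2. Without the libraries labelled dorsal competent telogen and ventral early anagen, the limma adjusted p was 7.3e-14 for Per3, 7.0e-11 for Dbp, 1.0e-06 for Per1, 0.0034 for Arntl and 0.62 for Npas2, and between 0.00023 and 0.0094 for the other 5 members.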

How the results depend on the processing

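Of 333 single results, alternatives gave 16463 values on the same side of the threshold, 438 below it for 101 results, 41 now past it for 17 results and 11 of opposite sign for 7 results. Telogen minus anagen in ventral skin was 0.0094 for Cry1, -0.40 for Per1 and 0.25 for Per3 without ventral refractory telogen (Per1 and Per3 then passed in limma), and 0.19 for Per3 without ventral early anagen. In dorsal skin Per3 was -0.048 without dorsal competent telogen. With dorsal refractory telogen as the dorsal group, ear skin differed by -0.30 for Per1 and -0.37 for Arntl, and the cartilage/muscle complex by -0.48 for Arntl, which median of ratios scaling took to -0.0151. The causes were not tested. The 75 calls between pairs of domains became 49 when both dorsal competent telogen and ventral early anagen were left out, which removes comparisons. Leaving out 1 library gave 28 to 30 calls of a stage effect (29 with all), 34 to 40 of a domain effect (38), 10 of the interaction, 91 to 100 between adjacent stages (98) 67 to 83 between pairs of domains (75), 11 to 15 higher and 2 to 4 lower in telogen (14 and 3), and, for the ear, 8 to 10 against dorsal skin for ear skin (9), 7 to 9 for the complex (9) and 6 between them (6). A replicate block gave 28, 37, 10, 96 and 74 in the same order. Same-numbered libraries did not deviate together (mean r from -0.17 to 0.16 over 153 pairs of groups), so the numbers were not taken as pairs. Median of ratios scaling moved the median of all genes by -0.25 to 0.25 on the log2 scale in the skin comparisons. Per2 and Npas2, at medians of 0.33 and 0.53 FPKM, were limited most by depth.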
